A study of Mus musculus with 12 samples.

Results

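Opposite-strand lncRNAs are non-coding genes named after the coding gene on the other DNA strand, with the suffix os. Here they are the non-coding genes of the count table whose symbol ends in os, or in os and a digit, and which reached a level of 3 CPM or more (CPM is the count of a gene divided by the size of its library) in no fewer than 3 of the 12 libraries. Of 291 non-coding genes with such a name, 45 passed this filter. Another 246 did not, 81 of them with no count in any library. The gene named before os is called the partner, and 44 of the 45 partners were themselves tested. Ccdc142, the partner of Ccdc142os, is listed at 0 counts. Of its 2317 exon bases, 2288 are shared with another gene on its strand, so that its level is uncertain.

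The libraries came from mouse embryonic stem cells (ESCs), a pluripotent cell line, grown with LIF and 2 kinase inhibitors (2i) and labelled for 30 minutes with 500 uM 4-thiouridine (4sU). 4sU is a uridine analog that marks RNA made during the pulse. The RNA of each culture was split for a pulled-down nascent (4sU) library and a total RNA library, and rRNA was removed from the total RNA. The 4 groups were wild type 4sU, Dgcr8 KO 4sU, wild type total and Dgcr8 KO total, with 3 libraries each. Dgcr8 encodes the RNA-binding partner of Drosha in the nuclear step of microRNA maturation, so that the KO line lacks canonical microRNAs. The KO libraries were those of a Dgcr8 KO line, and the sources used here do not say that replicates are separate derivations, so p-values measure the spread between these libraries only.

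Counts per library ranged from 4593914 to 6005526 in 4sU and from 6873708 to 9295245 in total RNA. Dgcr8 itself fell in total RNA, from 92.5 to 111 CPM in wild type down to 32.0 to 34.1 CPM in KO (log2 -1.60 ± 0.085, limma adjusted p = 6.63e-17). All 10 ESC markers were detected in every group, with summed levels of 5491 to 10740 CPM. The summed levels were at most 3.77 CPM for 7 fibroblast markers, at most 17.6 CPM for 6 primitive endoderm markers and at most 18.7 CPM for 5 trophoblast markers. The fibroblast genes Postn and Dcn had no count in any library.

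Many coding genes share their start region with a transcript that runs the other way, since polymerase can initiate in both directions from the same open promoter. Other opposite-strand transcripts begin inside a gene or beyond its end and cross it in the antisense direction. Most RNAs of this kind are made at low levels, and many decay soon after they are made. The steady-state level of an RNA reflects both its synthesis and its decay, and the ratio of total to 4sU RNA serves as a relative measure of stability.

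All 45 lncRNAs lie on the strand opposite to their partner. The 5′ ends of 21 pairs lie within 1 kb of each other (head-to-head), 22 pairs overlap with their 5′ ends farther apart, and 2 lncRNAs, Epb41l4aos and Fbxl12os, lie beyond the 3′ end of the partner. In 27 pairs some exon bases are shared on opposite strands. Reads were counted by strand, and what part wrong-strand reads might have was not tested. Positions of genes are given on mm10 as deposited. The annotation calls 36 of the lncRNAs antisense, 4 lincRNA, 3 processed transcript and 2 bidirectional promoter lncRNA. Their exonic length ranged from 430 to 6566 bases with a median of 1603, and 4 have a single exon. Rab26os holds the small nucleolar RNA Snord60, Epb41l4aos holds the small nucleolar RNA gene Gm23639 and Dio3os holds the microRNA gene Mir1247, all on the same strand.

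In 10 head-to-head pairs the genes do not overlap, and 38 to 895 bases separate their starts. The gaps of Brip1os, Cep83os, Fam120aos and Map2k3os are shown because they hold the whole start region shared with the partner for lncRNAs described below. Each was read from RefSeq promoter windows (GRCm38.p6) in the direction of the lncRNA, so that the partner starts before the first base, on the other strand, and the lncRNA starts after the last. Capitals mark CCAAT (or ATTGG) and GGGCGG (or CCGCCC), searched on both strands.
Brip1os (chr11:86201194-86201369, + strand): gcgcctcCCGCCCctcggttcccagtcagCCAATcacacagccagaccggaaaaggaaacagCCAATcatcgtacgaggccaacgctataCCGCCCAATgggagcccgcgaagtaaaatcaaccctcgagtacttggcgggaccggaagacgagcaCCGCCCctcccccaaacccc
Cep83os (chr10:94688577-94688653, - strand): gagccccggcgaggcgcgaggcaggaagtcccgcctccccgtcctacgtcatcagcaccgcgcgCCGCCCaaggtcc
Fam120aos (chr13:48968018-48968286, + strand): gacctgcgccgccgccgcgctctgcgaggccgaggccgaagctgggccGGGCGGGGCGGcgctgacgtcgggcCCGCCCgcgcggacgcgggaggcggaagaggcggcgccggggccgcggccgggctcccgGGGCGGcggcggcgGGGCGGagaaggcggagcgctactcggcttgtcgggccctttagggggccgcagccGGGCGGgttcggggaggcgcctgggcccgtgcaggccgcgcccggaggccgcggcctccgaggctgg
Map2k3os (chr11:60931868-60932032, - strand): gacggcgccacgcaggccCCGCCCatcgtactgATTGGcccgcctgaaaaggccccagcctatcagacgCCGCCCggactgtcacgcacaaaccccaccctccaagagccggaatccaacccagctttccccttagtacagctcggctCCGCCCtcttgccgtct
The 176 bases before Brip1os hold 3 CCAAT and 3 GGGCGG matches, of which 1 CCAAT shares bases with a GGGCGG match. The 165 bases before Map2k3os hold 1 CCAAT and 3 GGGCGG matches, and the 77 bases before Cep83os hold 1 GGGCGG match and no CCAAT. The 269 bases before Fam120aos hold 6 GGGCGG matches, 2 of them sharing bases, and no CCAAT. None of the 4 gaps holds TATAAA. Other gaps that were covered whole are not shown. That of Etaa1os holds 2 CCAAT and 2 GGGCGG matches, that of Atad3aos 1 CCAAT and no GGGCGG, and those of Stamos and Tmem147os neither. Of 32851 promoter windows of 300 bases, 37.4% hold CCAAT, 35.7% hold GGGCGG and 13.6% hold TATAAA. The gap of Fam120aos is 84.0% G and C, that of Cep83os 75.3%, that of Map2k3os 65.5% and that of Brip1os 61.9%. The annotation also places an exon of a further unclassified gene, Gm49167, in the gap of Cep83os. A promoter window was found for 27 of the 45 lncRNAs, too few for a statement on base content over all of them.

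To ask how fast these RNAs turn over, the total to 4sU ratio was first examined within wild type ESCs. The opposite-strand lncRNAs were low in total RNA relative to 4sU RNA, and far lower than their partners. Their median log2 ratio was -2.25, against -0.27 for the 44 tested partners and 0.08 over all 14033 genes tested. The ratio was called lower (adjusted p below 0.05 and log2 below -1) for 39 of 45 lncRNAs by limma and for 38 by edgeR, beside 25.0% of all genes tested. It was called lower for 15 of 44 partners. Among 1463 other tested lncRNAs the median was -2.73 and 1311 were called lower, a lower median than that of the opposite-strand lncRNAs. With another scaling, upper-quartile factors, the median over all genes moved from 0.08 to -0.24. The median was -2.52 in 6 lncRNAs with the related suffixes as and ot.

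The ratio of the lncRNA lay below that of its own partner in 39 of 44 pairs. The median difference between lncRNA and partner was -1.81 ± 0.11 (log2, SD, n = 3) over the wild type cultures and -2.08 ± 0.14 over the Dgcr8 KO cultures. In single cultures it ranged from -1.68 to -1.89 in wild type and from -2.0 to -2.24 in KO. The filter bears on this comparison, since 35 of the 45 lncRNAs passed it only with the help of their 4sU libraries and so had to be high there. Only 6 lncRNAs, Brip1os, Epb41l4aos, Fam120aos, Rab10os, Rab26os and Srrm4os, reached 3 CPM in all 12 libraries.

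By mean level per kb of exon over the 4sU libraries, the 8 highest lncRNAs include these 6 except Srrm4os. In wild type 4sU RNA the level per kb was 341 ± 43.6 CPM (SD, n = 3) for Epb41l4aos and 201 ± 22.2 CPM for Rab26os, the highest of all. The others were Lrrc75aos2 at 29.9 ± 5.45 CPM per kb, Rab10os at 25.7 ± 2.58, Fam120aos at 16.5 ± 4.09, Zbtb11os1 at 10.7 ± 0.502, Brip1os at 10.6 ± 0.438 and Map2k3os at 8.21 ± 1.21. Lrrc75aos2 and Rab10os do not differ beyond their spread, nor do Zbtb11os1 and Brip1os. The median over the lncRNAs was 4.09 CPM per kb against 8.99 over the partners, and 31 of 44 lncRNAs were below their partner in wild type 4sU RNA. In wild type total RNA the medians were 0.661 and 8.16 CPM per kb, and 38 lncRNAs were below their partner.

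Rab10os crosses the end of Rab10, a small GTPase of vesicle transport. It was at 153, 176 and 145 CPM in the wild type 4sU libraries and at 20.1, 22.9 and 24.4 CPM in total RNA. Every total library was thus far below every 4sU library (log2 -2.79 ± 0.10, limma adjusted p = 1.47e-22). Rab10 went from 100.3 ± 8.41 CPM in 4sU to 141 ± 5.6 CPM in total RNA (SD, n = 3), a log2 ratio of 0.50. Fam120aos, head-to-head with Fam120a, was at 30.4, 36 and 21.5 CPM in 4sU and at 5.46, 7.07 and 4.07 CPM in total RNA. Its log2 ratio was -2.39 ± 0.21 and that of Fam120a 1.05 ± 0.06.

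Brip1os starts 176 bases from Brip1, which encodes a DNA helicase that binds BRCA1. Brip1os was at 67.7, 72 and 66.5 CPM in wild type 4sU and at 37.9, 37.1 and 39.9 CPM in total RNA, a log2 ratio of -0.84 ± 0.08 (limma adjusted p = 1.07e-11). Brip1 had the opposite sign, at 33.9, 29.1 and 31.3 CPM in 4sU and 54.2, 59.9 and 55.5 CPM in total RNA, a log2 ratio of 0.84 ± 0.10. Thus in 4sU RNA Brip1os was above Brip1 per length (10.6 ± 0.438 against 4.54 ± 0.351 CPM per kb), and in total RNA it was below (5.89 ± 0.219 against 8.16 ± 0.429). Neither gene was called between the genotypes.

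Fbxl12os had the lowest ratio of all, with 5.95, 6.9 and 4.45 CPM in wild type 4sU and 0.312, 0.61 and 0.349 CPM in total RNA (log2 -3.58 ± 0.50). Its partner Fbxl12, an F-box protein gene, also had a low ratio (log2 -2.37 ± 0.11). The next lowest were H3f3aos (-3.50), Lrrc75aos2 (-3.46), Zfp85os (-3.44), Rsf1os2 (-3.33) and Phtf1os (-3.32), and the largest adjusted p of the 6 by limma was that of Fbxl12os, 8.33e-08. The partners of these 5 had log2 ratios of 0.35, -0.42, -1.24, -0.23 and 0.86. H3f3a, which encodes histone H3.3, has near-identical copies in the genome, so its uniquely mapped counts are uncertain. Zfp85os had only 2 or 3 counts in each wild type total library, and Fbxl12os 2 to 5. With its SE of 0.50, Fbxl12os does not stand apart from the next lowest.

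At the other end, the ratio did not pass the test for 4 of the 6 highest, Srrm4os, Vax2os, Arhgap27os2 and Parvaos. Of these, Vax2os, Arhgap27os2 and Parvaos reached 3 CPM in no wild type 4sU library. Arhgap27os2 and Parvaos had 3 to 10 counts in each. In KO the mean log2 ratios of the 4 were 0.09, -0.57, -1.61 and -1.665, in that order. Arhgap27os2 and Parvaos were called lower there by limma, so the failed test in wild type does not show stable RNAs. Srrm4os, opposite to Srrm4, a splicing regulator of neurons, was at 25.2, 28 and 21.9 CPM in wild type 4sU and at 24.8, 28.2 and 24.5 CPM in total RNA (log2 0.06 ± 0.12, limma adjusted p = 0.659). Here the partner was the depleted RNA, with Srrm4 at 14.3, 16.7 and 15.1 CPM in 4sU and 2.19, 1.34 and 0.929 CPM in total RNA (log2 -3.44 ± 0.30, adjusted p = 3.89e-12). Foxl2os, Frs3os, Tomm6os and Vax2os were the other lncRNAs with a ratio above that of the partner. Tomm6 had 6 counts in all 3 wild type total libraries together, and Foxl2 had 1, and most exon bases of Tomm6 are shared with another gene on its strand.

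**Figure D1:**
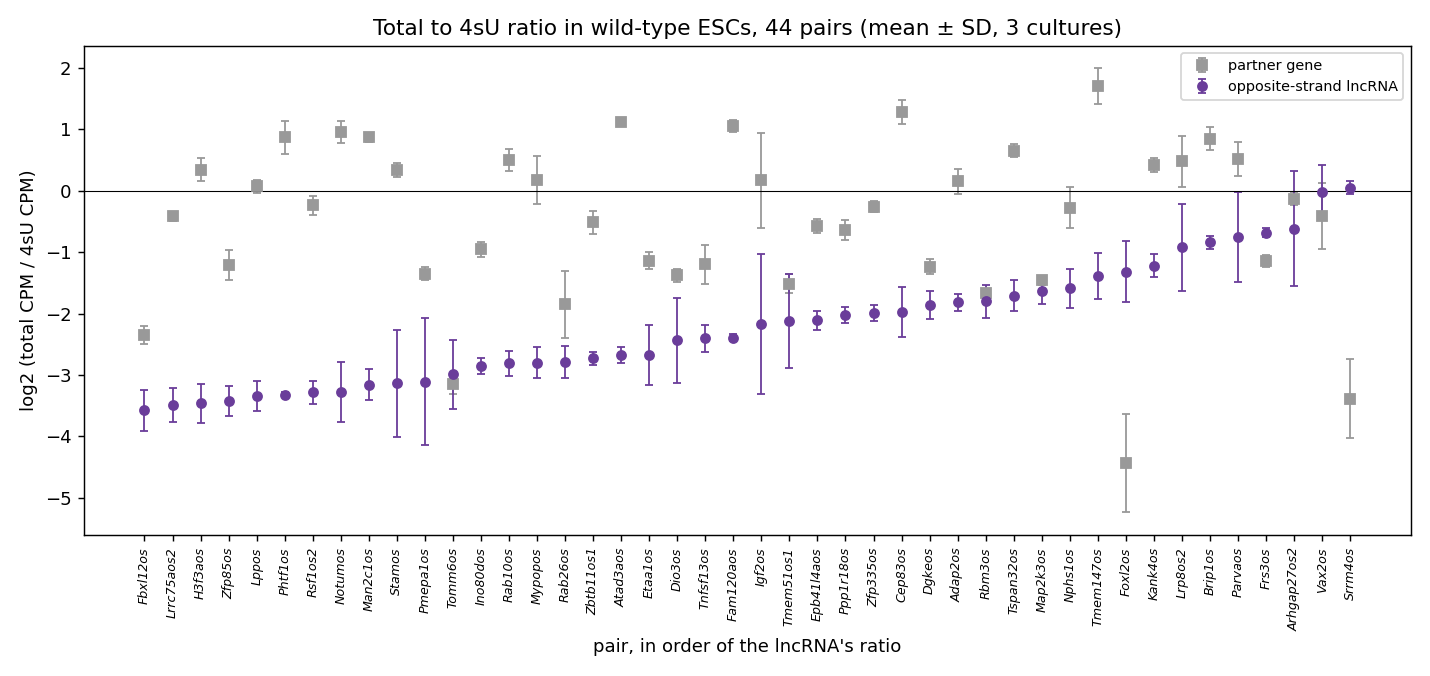
Log2 ratio of total to 4sU CPM in wild type ESCs for the 44 pairs, ordered by the ratio of the lncRNA, with circles for lncRNAs and squares for partners (mean ± SD, n = 3 cultures). The lncRNA lies below its partner in 39 pairs, and Srrm4os at the right end lies above Srrm4.

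Next, the nascent RNA of the genotypes was compared, where fewer cells that make an RNA and less of it per cell cannot be told apart. Among the opposite-strand lncRNAs, 8 were called higher in Dgcr8 KO, beside 9.5% of all genes tested, and 2 were called lower, beside 5.27%. As a share of the 45, this is 17.8% higher and 4.44% lower. The filter bears on these shares and on the median given below. Without the KO libraries 11 of the 45 would not have passed it, and without the wild type libraries 5. Of those called higher, Arhgap27os2, Lrp8os2, Parvaos, Ppp1r18os and Vax2os needed the KO libraries to pass. edgeR called 9 higher and 2 lower. Without the size limit, 15 rose and 6 fell (46.7% of the 45), beside 56.3% of all genes. The median log2 change was 0.23 over the lncRNAs, 0.11 over the partners, -0.03 over the other lncRNAs and -0.02 over all genes tested. Of the partners, 9 were called higher and 2 lower.

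In total RNA, 6 lncRNAs were called higher, beside 9.33% of all genes tested, and 4 were called lower, beside 7.82%. edgeR called 5 higher and 4 lower. Of the 15 lncRNAs called in nascent or total RNA, 5 were called in both, Notumos, Parvaos and Vax2os higher and Igf2os and Kank4os lower. The filter limits what these counts show. For 7 of the 15, Arhgap27os2, Foxl2os, Igf2os, Lrp8os2, Parvaos, Ppp1r18os and Vax2os, the libraries of the genotype with the lower level would not have carried the gene past it. The filter thus favoured a difference in these, though it did not fix a call. The other 8 passed in each genotype alone.

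**Figure D2:**
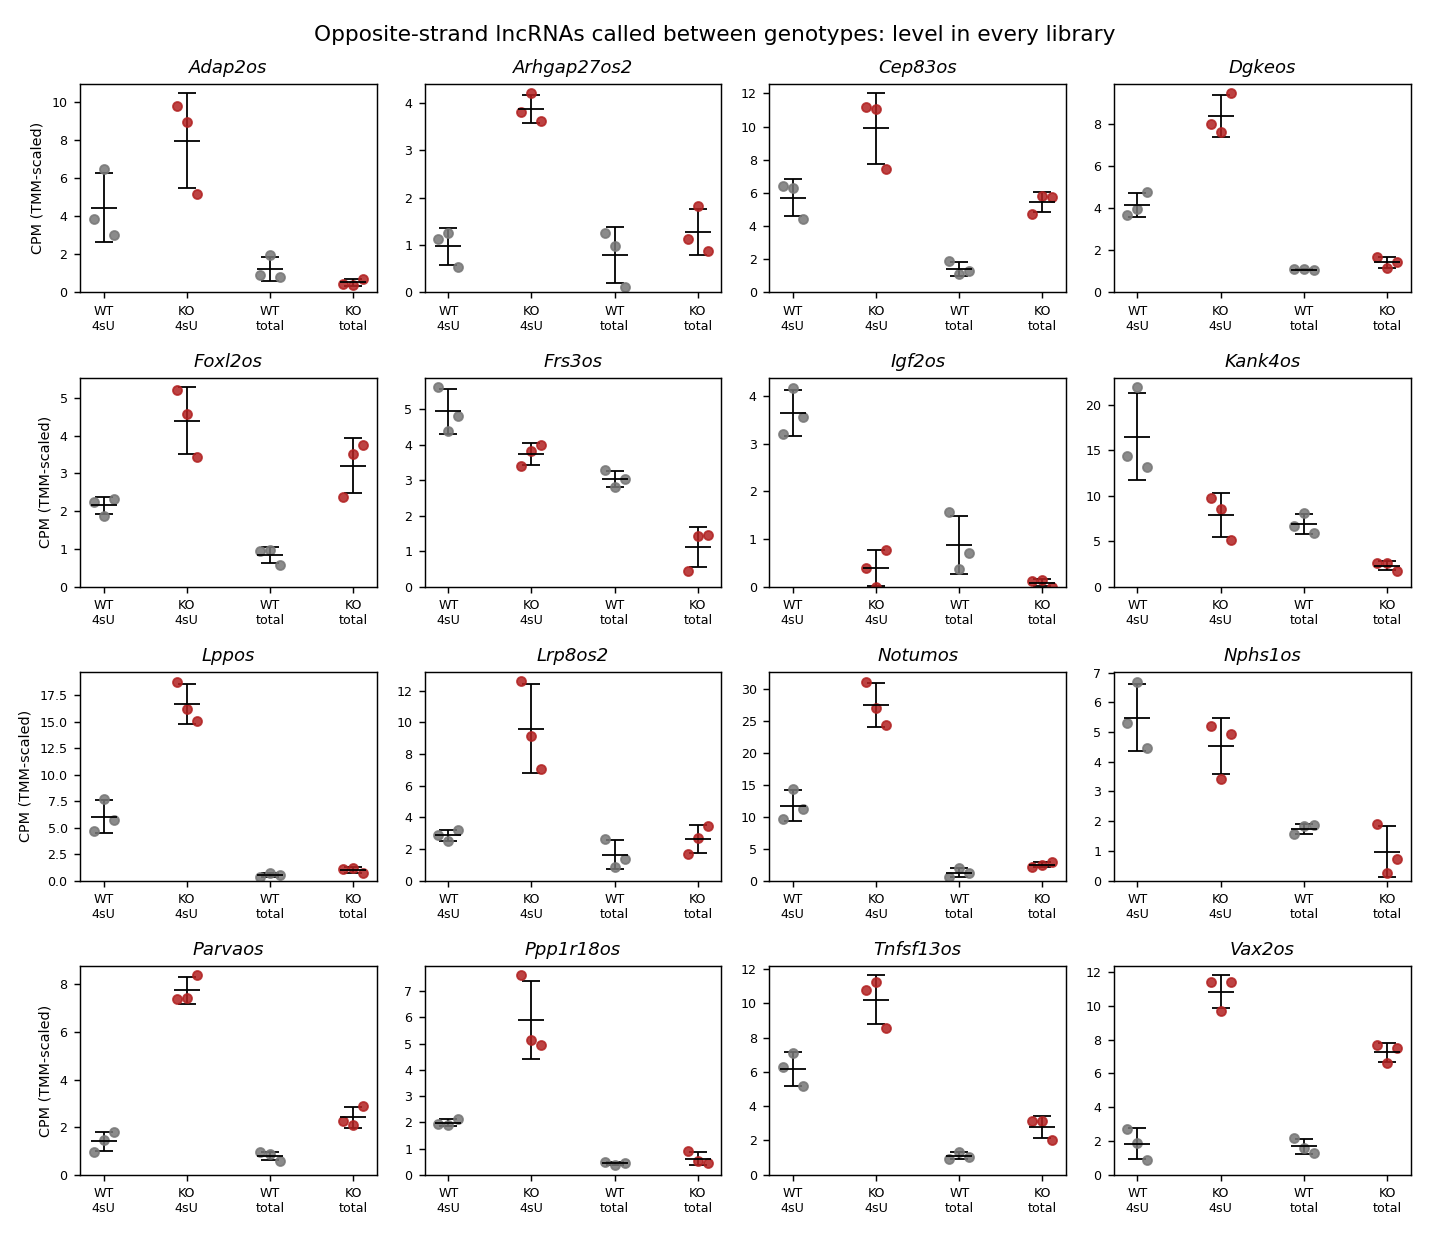
TMM-scaled CPM in each library for the 16 lncRNAs called in nascent RNA, total RNA or stability, with wild type in grey and Dgcr8 KO in red. Points are libraries and bars are the mean ± SD (n = 3). In Vax2os and Parvaos all KO libraries lie above all wild type libraries in both kinds of RNA, and in Kank4os all lie below.

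Vax2os and Parvaos had the largest nascent rises of the 45. Vax2 encodes a homeodomain factor of the ventral retina, and its 5′ end lies within 1 kb of that of Vax2os (chr6:83692806-83712201, - strand). Vax2os was at 2.73, 1.88 and 0.889 CPM in wild type 4sU and at 11.4, 9.73 and 11.4 CPM in KO. The groups did not overlap (log2 2.62 ± 0.32, limma adjusted p = 3.41e-08). In total RNA it was at 2.19, 1.58 and 1.28 CPM in wild type and 7.67, 6.62 and 7.5 CPM in KO (log2 2.13 ± 0.29, adjusted p = 1.15e-07). Vax2 rose beside it, from 3.38 ± 0.169 to 14.9 ± 1.88 CPM in nascent RNA (SD, n = 3, log2 2.11 ± 0.25) and by a log2 change of 2.31 in total RNA.

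Parvaos (chr7:112526972-112535683, - strand) lies within the span of Parva, which encodes alpha-parvin, a focal adhesion protein, and shares no exon base with it. It was at 0.965, 1.46 and 1.78 CPM in wild type 4sU and at 7.4, 7.44 and 8.38 CPM in KO (log2 2.45 ± 0.33, limma adjusted p = 1.65e-07). Every KO library was above every wild type library, in total RNA as well, where it went from 0.937, 0.854 and 0.581 CPM to 2.26, 2.08 and 2.89 CPM (log2 1.55 ± 0.38). Parva itself rose more, from 4.67 ± 0.488 to 42.7 ± 4.76 CPM in nascent RNA (SD, n = 3, log2 3.16 ± 0.20). Lppos (chr16:24391612-24393588, - strand) starts head-to-head with Lpp, which encodes another focal adhesion protein with LIM domains. Nascent Lppos was at 4.66, 7.74 and 5.69 CPM in wild type and at 18.8, 16.2 and 15 CPM in KO (log2 1.51 ± 0.19, adjusted p = 7.60e-08), and nascent Lpp changed by a log2 of 1.56 ± 0.09. In total RNA, Lpp rose (log2 1.37 ± 0.08), while Lppos had a log2 change of 0.83 ± 0.50 with an adjusted p of 0.15, on 2 to 10 counts per library.

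Notum encodes a secreted esterase that removes the lipid from Wnt proteins. Notumos (chr11:120659157-120661815, + strand), a single-exon RNA with 653 of its 2659 bases opposite exon bases of Notum, starts inside Notum and runs out past its 5′ end. It was at 9.65, 14.4 and 11.2 CPM in wild type 4sU and at 31.2, 27.1 and 24.4 CPM in KO (log2 1.26 ± 0.15, limma adjusted p = 3.35e-08). The groups did not overlap. Notum rose from 20.2 ± 2.54 to 77.5 ± 4.43 CPM in nascent RNA (SD, n = 3, log2 1.92 ± 0.10) and by a log2 of 2.52 ± 0.07 in total RNA. Total Notumos, at 0.625, 1.95 and 1.16 CPM in wild type and 2.15, 2.46 and 2.89 CPM in KO, was near the size limit (log2 1.02 ± 0.39, adjusted p = 0.0246). The call was lost in edgeR (log2 0.93), in DESeq2 (0.98), and without wild type culture 1 (0.68, adjusted p = 0.131), wild type culture 3 (adjusted p = 0.0732) or KO culture 3 (0.93).

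Foxl2, a forkhead factor of the ovary and eyelid, overlaps Foxl2os (chr9:98949781-98955299, - strand) by 12 bases at their 5′ ends. Nascent Foxl2os was at 2.25, 1.88 and 2.31 CPM in wild type and 5.2, 4.58 and 3.43 CPM in KO, and total Foxl2os at 0.937, 0.976 and 0.581 and 2.37, 3.5 and 3.75 CPM. Every KO library was above every wild type library of its kind. Foxl2os was called higher in total RNA (log2 1.87 ± 0.38, limma adjusted p = 6.79e-05) and had a nascent log2 change of 0.98 ± 0.32, just under the size limit. Foxl2 rose in nascent RNA (log2 1.66 ± 0.30), and its total counts were 1 in the 3 wild type libraries together and 12 in the KO libraries, a scaled ratio of 11.9 with an exact 95% interval of 1.75 to 507 that covers counting error only.

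Arhgap27os2 (chr11:103355701-103361092, + strand), opposite to Arhgap27, which encodes a GTPase-activating protein, was at 1.13, 1.25 and 0.534 CPM in wild type 4sU and 3.8, 4.2 and 3.62 CPM in KO (log2 1.99 ± 0.48, limma adjusted p = 0.000709). The groups did not overlap, and Arhgap27 rose as well, by a log2 of 1.42 ± 0.16. Of the 1390 exon bases of Arhgap27os2, 1055 lie opposite exon bases of Arhgap27, and the part of wrong-strand reads was not tested. Ppp1r18os (chr17:35860918-35866886, - strand) was at 1.93, 1.88 and 2.13 CPM in wild type 4sU and 7.6, 5.15 and 4.95 CPM in KO (log2 1.5 ± 0.31), and its partner Ppp1r18, a regulatory subunit gene of protein phosphatase 1, had a smaller rise of 0.40 ± 0.11. Tnfsf13os (chr11:69682138-69691141, + strand), across the gene of the cytokine APRIL, was called in total RNA, where it went from 0.937, 1.34 and 1.05 CPM in wild type to 3.16, 3.11 and 2.02 CPM in KO (log2 1.27 ± 0.36, adjusted p = 0.00244). All KO libraries were above all wild type libraries for both lncRNAs. Total Tnfsf13 changed by a log2 of 1.42 ± 0.41 (adjusted p = 0.0029) at 0.954 ± 0.498 CPM in wild type (SD, n = 3). Its counts are uncertain, since 983 of its 1637 exon bases are shared with another gene on its strand. The nascent call of Tnfsf13 was lost in 5 of 10 settings. These were DESeq2, RLE and upper-quartile size factors, the replicate number as a block, and without wild type culture 1 (log2 0.72).

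Among the lncRNAs that fell, Igf2os (chr7:142659693-142670356, + strand) was at 3.22, 4.18 and 3.56 CPM in wild type 4sU and at 0.4, 0 and 0.761 CPM in KO (log2 -3.42 ± 0.61, limma adjusted p = 1.93e-05). All KO libraries were below all wild type libraries. Its partner Igf2, an imprinted growth factor gene, fell from 4.01 ± 1.27 to 1.36 ± 0.193 CPM in nascent RNA (SD, n = 3, log2 -1.49 ± 0.38). Total Igf2os had 19 counts in the 3 wild type libraries and 2 in the KO libraries, a scaled KO to wild type ratio of 0.104 with an exact 95% interval of 0.0118 to 0.431. Kank4os (chr4:98793768-98798900, + strand), inside Kank4, was at 14.3, 22 and 13.2 CPM in wild type 4sU and 9.8, 8.58 and 5.14 CPM in KO (log2 -1.05 ± 0.22). Its nascent log2 change was -0.87 without wild type culture 2 and -0.76 without KO culture 3, within the size limit. Total Kank4os went from 6.71, 8.05 and 5.93 to 2.6, 2.6 and 1.73 CPM (log2 -1.54 ± 0.30, adjusted p = 4.86e-05), and Kank4 had total and nascent log2 changes of -0.80 ± 0.09 and -0.46 ± 0.10, both past adjusted p.

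Frs3os and Nphs1os fell in total RNA alone. Frs3os (chr17:47699971-47701996, - strand) was at 3.28, 2.8 and 3.02 CPM in wild type total RNA and 0.452, 1.43 and 1.44 CPM in KO (log2 -1.61 ± 0.37, limma adjusted p = 0.000317). The groups did not overlap. Frs3, which encodes an adaptor of fibroblast growth factor receptors, fell in total RNA as well (log2 -1.17 ± 0.15), with nascent RNA at 40.2 ± 2.42 and 38.1 ± 4.05 CPM (SD, n = 3). Frs3 was the only one of the 44 partners called for stability (log2 -1.09 ± 0.18, adjusted p = 4.36e-05, with RLE size factors log2 -0.997, just within the size limit), and Frs3os had a stability log2 change of -1.21 ± 0.46 with an adjusted p of 0.0725. Nphs1os (chr7:30462164-30465591, - strand), opposite to the gene of the kidney filter protein nephrin, was at 1.56, 1.83 and 1.86 CPM in wild type and at 1.92, 0.26 and 0.722 CPM in KO total RNA, so that KO culture 1 lay above every wild type library (log2 -1.14 ± 0.47, adjusted p = 0.0352). edgeR did not call it (adjusted p = 0.11), and its adjusted p rose to 0.36 without KO culture 2, 0.0649 without wild type culture 2, 0.0689 without wild type culture 3 and 0.0767 without KO culture 3.

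The direction of nascent change was then set beside that of the partner, pair by pair. It had the same sign in 32 of 44 pairs (72.7%), 14 of 21 head-to-head pairs and 17 of 21 overlapping pairs. In 362 other tested pairs of a lncRNA and a coding gene with 5′ ends within 1 kb, it had the same sign in 238 (65.7%). Among those of the 44 pairs that share no exon base, the share with the same sign was smaller than over all 44. Across the 44 pairs, which share libraries and scaling, Spearman's correlation was 0.45 and Pearson's r 0.61, and Spearman's correlation was 0.46 across the 362 other pairs. Many of these signs rest on small changes, and with RLE size factors, another scaling, 29 of the 44 pairs had the same sign. Both members passed adjusted p below 0.05 in 16 pairs, in the same direction in 12 and in opposite directions in 4.

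**Figure D3:**
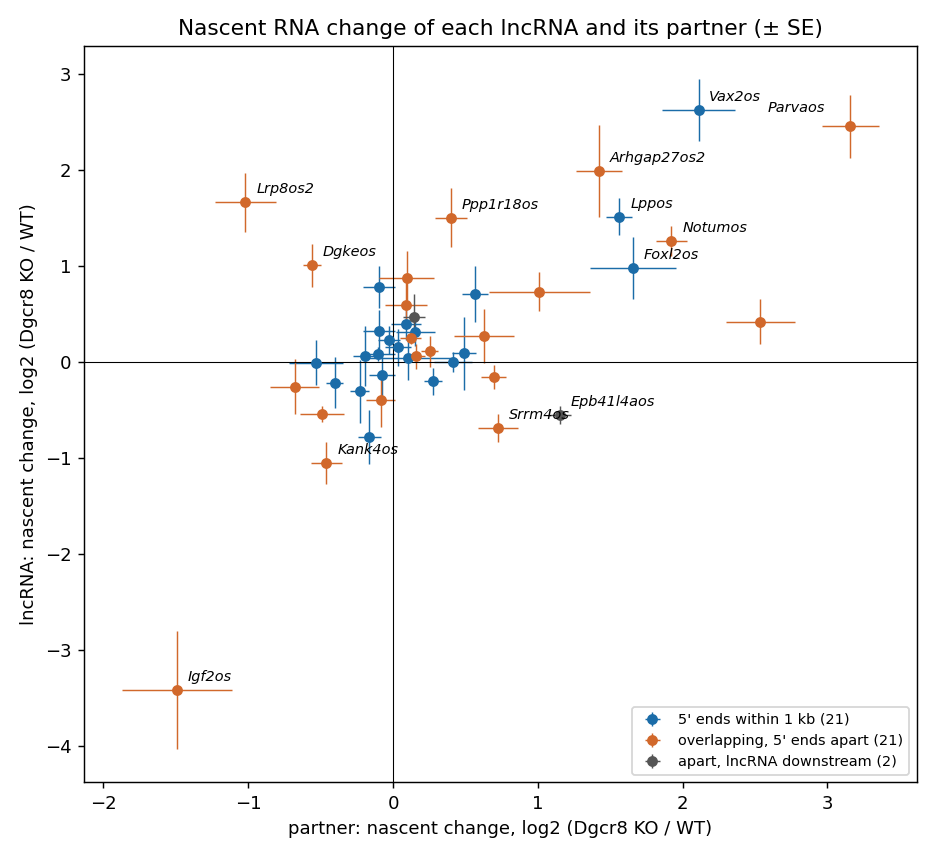
Nascent log2 change (Dgcr8 KO over wild type) of each lncRNA on the vertical axis against that of its partner on the horizontal axis, for 44 pairs coloured by geometry, with bars of ± SE. Vax2os, Parvaos, Lppos and Notumos lie with their partners in the upper right, Igf2os in the lower left, and Lrp8os2, Dgkeos, Srrm4os and Epb41l4aos lie in the quadrants of opposite sign.

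The 4 pairs that moved in opposite directions were Dgkeos with Dgke, Epb41l4aos with Epb41l4a, Lrp8os2 with Lrp8 and Srrm4os with Srrm4. Lrp8 encodes a receptor for reelin and apolipoprotein E. Nascent Lrp8os2 was at 2.9, 2.51 and 3.2 CPM in wild type and 12.6, 9.16 and 7.04 CPM in KO (log2 1.66 ± 0.31, limma adjusted p = 2.89e-05). The groups did not overlap. Lrp8os2 (chr4:107806033-107823022, - strand) lies within the span of Lrp8 and shares no exon base with it. Nascent Lrp8 went the other way, from 14.3, 13 and 12.8 to 7.4, 6.1 and 6.28 CPM (log2 -1.02 ± 0.21, adjusted p = 0.000112). The log2 ratio of Lrp8os2 to Lrp8 in 4sU libraries was -2.19 ± 0.19 in wild type and 0.50 ± 0.31 in KO (SD, n = 3), given as a description, since the pair was chosen by these nascent changes. The nascent call of Lrp8 sits at the size limit, with a log2 change of -0.97 without wild type culture 1, -0.96 without KO culture 2 and -0.97 without KO culture 3.

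Dgke encodes a diacylglycerol kinase, and Dgkeos (chr11:89064729-89069098, + strand) starts within its span and runs out of it. Nascent Dgkeos was at 3.7, 3.97 and 4.8 CPM in wild type and 8, 7.63 and 9.52 CPM in KO (log2 1.0 ± 0.22, limma adjusted p = 0.000323). No KO library overlapped the wild type range for Dgkeos. Nascent Dgke fell from 226, 225 and 213 to 147, 148 and 156 CPM (log2 -0.56 ± 0.06, adjusted p = 3.82e-09). The Dgkeos change lay at the size limit, and its log2 was 0.90 without wild type culture 1, 0.98 without wild type culture 2 and 0.92 without KO culture 3, with adjusted p below 0.05 each time. Its call was lost in 6 of 13 settings, which also include DESeq2, RLE size factors and upper-quartile factors.

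Epb41l4a encodes a FERM domain protein, and Epb41l4aos runs toward it from beyond its 3′ end, with 340 bases between the genes. Nascent Epb41l4aos fell from 138, 168 and 134 to 109.8, 109 and 80.3 CPM (log2 -0.56 ± 0.09, limma adjusted p = 6.24e-06), and nascent Epb41l4a rose from 59.8, 55 and 61.9 to 139, 131 and 124 CPM (log2 1.15 ± 0.07, adjusted p = 1.27e-14). Nascent Srrm4os fell from 25.2, 28 and 21.9 to 18.2, 17 and 11.8 CPM (log2 -0.69 ± 0.15, adjusted p = 0.000182), and nascent Srrm4 rose from 14.3, 16.7 and 15.1 to 28, 24.6 and 23.6 CPM (log2 0.73 ± 0.14, adjusted p = 3.65e-05). Over all 44 pairs, the log2 ratio of lncRNA to partner in 4sU libraries did not overlap between genotypes in 13, each with p = 0.1 in an exact two-sided permutation test, the smallest that 3 against 3 libraries allow. These include the 4 pairs, which were chosen by their opposite nascent changes, so that this is no further evidence for them. The same count was not made for other pairs of genes, so that 13 is not shown to be particular to these lncRNAs.

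Last, the stability change was tested as the interaction of genotype and library type. It was called for 1 of 45 lncRNAs in each direction by limma and by edgeR, with Cep83os higher, beside 0.791% of all genes, and Adap2os lower, beside 0.969%. The median stability change was -0.19 over the lncRNAs, -0.08 over the partners and over the other lncRNAs, and -0.09 over all genes. Over the 44 pairs, Spearman's correlation between the stability change of lncRNA and partner was 0.14.

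**Figure D4:**
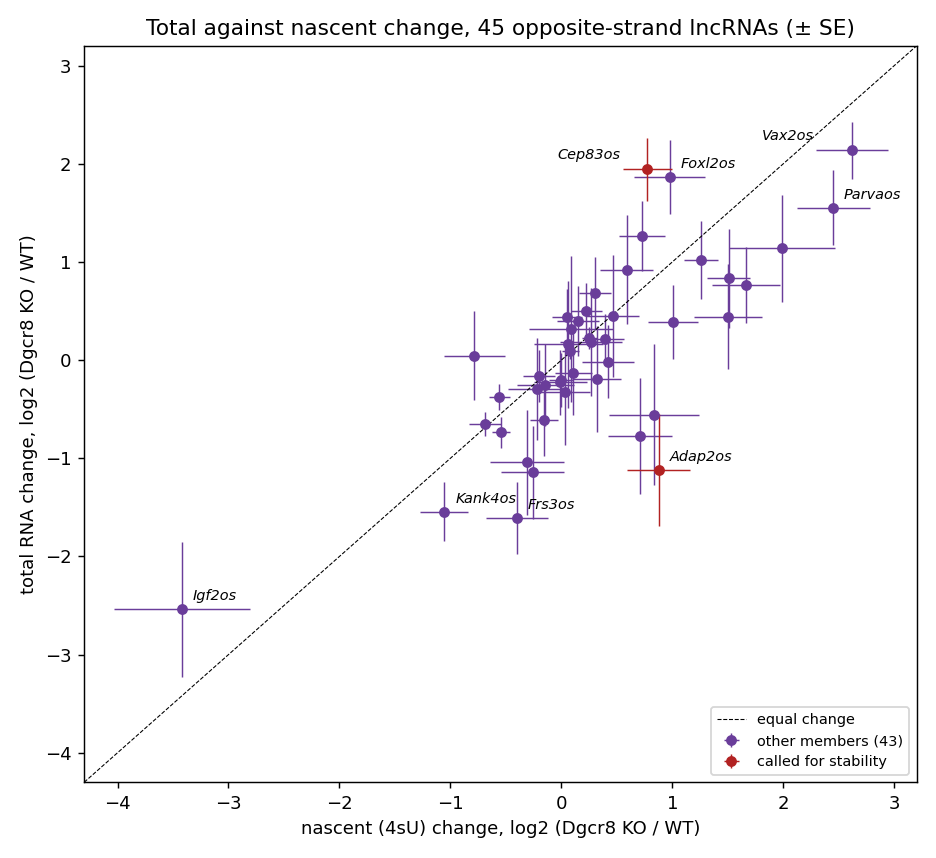
Total RNA log2 change against nascent log2 change (Dgcr8 KO over wild type) for the 45 lncRNAs, with bars of ± SE and a dashed line of equal change. Cep83os and Adap2os, in red, are the 2 called for stability, with changes of 1.17 above and -2.0 below that line.

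Cep83 encodes a distal appendage protein of the centriole that is needed for cilia, and Cep83os (chr10:94671025-94688576, - strand) starts 77 bases from it. Cep83os was at 6.43, 6.27 and 4.45 CPM in wild type 4sU and 11.2, 11.1 and 7.42 CPM in KO, a nascent rise (log2 0.77 ± 0.22, adjusted p = 0.00344 by limma). In total RNA it rose more, from 1.87, 1.1 and 1.28 to 4.74, 5.84 and 5.77 CPM (log2 1.94 ± 0.32, adjusted p = 3.32e-06). In both kinds of RNA every KO library was above every wild type library. The stability change was a log2 of 1.17 ± 0.39 (adjusted p = 0.036). Cep83 was at 83 ± 3.56 CPM in wild type and 83.6 ± 2.23 CPM in KO total RNA (SD, n = 3), with a total log2 change of 0.01 ± 0.07. The stability call of Cep83os rests on 9 to 12 counts per wild type total library, and it was lost without wild type culture 1 (adjusted p = 0.0835), 2 (0.179) or 3 (0.0515) and without KO culture 2 (0.0615) or 3 (0.114), with log2 changes from 0.92 to 1.29.

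The ESC-specific cell cycle (ESCC) microRNAs, abundant in ESCs, share the seed AAGUGC at their 5′ end. RefSeq (GRCm38.p6) gives miR-294-3p at chr7:3220691-3220712, + strand, with bases 2 to 8 in capitals.
miR-294-3p: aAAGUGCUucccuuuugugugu
All 45 lncRNAs were searched for matches to this seed, and Cep83os is shown because it was called for a higher stability and holds the most copies of the match to bases 2 to 7. Its longest transcript (6566 bases, 3 exons) holds 5 copies of GCACTT, which pairs with bases 2 to 7, and 2 of them extend to AGCACTT, which pairs with bases 2 to 8. The windows of 30 bases around these 2, with the match in capitals, lie at chr10:94678400-94678429 and chr10:94676253-94676282 (GRCm38, - strand).
Cep83os transcript bases 363 to 392: ggttacttcatAGCACTTccattttcaaag
Cep83os transcript bases 1309 to 1338: catattagatgAGCACTTtactaactgaat
No other opposite-strand lncRNA holds 5 or more copies of GCACTT, and 6 of 1463 other tested lncRNAs do (0.41%). Cep83os is also the longest of the 45. At least 1 copy was found in 15 of the 45 (33.3%) and in 43.5% of the other lncRNAs, whose median transcript is longer (2040 against 1576 bases). A match of 7 letters (AGCACTT or GCACTTA) was found in 10 of the 45 and in 26.2% of the other lncRNAs, and here Cep83os did not lead. By this count Igf2os, which fell in total RNA, holds 3, and Cep83os, H3f3aos and Rsf1os2 hold 2 each. A site that matches both forms was counted for each, and Rsf1os2 holds only 1 copy of GCACTT. Adap2os holds no copy of GCACTT. A match is a description of the letters and not a measured site.

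Adap2os (chr11:80158861-80177629, - strand) is transcribed within the span of Adap2, which encodes a GTPase-activating protein for Arf proteins. Adap2os was at 3.86, 6.48 and 3.02 CPM in wild type 4sU and 9.8, 8.97 and 5.14 CPM in KO (log2 0.88 ± 0.28, limma adjusted p = 0.00857). In total RNA it was at 0.937, 1.95 and 0.813 CPM in wild type and 0.452, 0.389 and 0.722 CPM in KO (log2 -1.12 ± 0.57, adjusted p = 0.0848). The nascent groups overlapped, with KO culture 3 below wild type culture 2, and the total groups did not. The stability change was a log2 of -2.0 ± 0.63 (adjusted p = 0.0276), and that of Adap2 was -0.19 ± 0.24. It rests on 3 to 5 counts per KO total library and 6 to 16 per wild type total library. The call was lost without wild type culture 1 (adjusted p = 0.0561) or 2 (0.069) and without KO culture 1 (0.115) or 2 (0.114), with log2 changes from -1.74 to -2.04.

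Among the most abundant lncRNAs, Rab26os fell within the size limit, from 99.9 ± 11.1 to 68 ± 5.29 CPM in nascent RNA (SD, n = 3, log2 -0.54 ± 0.08, limma adjusted p = 1.01e-06). It changed by a log2 of -0.74 ± 0.16 in total RNA, beside -1.26 ± 0.28 for Rab26, a GTPase of secretory granules. Rab26os shares 78 exon bases with Snord60 on its strand, and Rab26 shares 173 with another gene on its own. Reads on bases shared by genes of the same strand are left out by the default counting, so that both may be undercounted. Rab10os rose slightly in nascent RNA (log2 0.25 ± 0.07, adjusted p = 0.00209), whereas Brip1os, Fam120aos, Lrrc75aos2, Map2k3os and Zbtb11os1 had nascent log2 changes from -0.21 to 0.40 that did not pass. Tspan32, outside the naming rule and picked after its value was seen, had the second largest nascent rise of the partners (log2 2.54 ± 0.24), and Tspan32os a log2 change of 0.42 ± 0.24 that did not pass (adjusted p = 0.131).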

How the data were processed

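RNA of wild type and Dgcr8 KO ESCs was measured in 3 4sU and 3 total libraries per genotype. The deposited values are whole-number counts per gene. Per the labels and the study's methods, the authors trimmed 50-base single-end reads with cutadapt 1.14, aligned them with STAR 2.5.3a to mm10, kept unique alignments and counted them by strand with featureCounts 1.5.3 on GENCODE M14 (versions from the submitters' processing notes). Unique alignment leaves near-identical gene copies undercounted. Symbols and biotypes came from GENCODE M21, which matched 51274 of 51559 genes. The 92 spike-in rows held 1 count in all and were left out.

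Genes with at least 3 CPM in at least 3 of the 12 libraries (14033) were fitted in a single model with limma 3.58.1 (voom weights, TMM scaling from edgeR 4.0.16, R 4.3.3), with library type, genotype and their interaction, which is the stability change. Calls required a Benjamini-Hochberg adjusted p below 0.05 over all genes and an absolute log2 change above 1. Levels are TMM-scaled CPM, and CPM per kb uses exonic length. Pair ratios used a prior count of 0.5 and exact permutation tests. Foxl2 and Igf2os ratios of summed counts have exact conditional 95% intervals. Depth is given with the results, and intervals cover counting error only.

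Named with values are lncRNAs called in any contrast, the 8 highest per kb in 4sU, the 6 highest and 6 lowest wild type ratios, the pairs past adjusted p in opposite nascent directions, and all their partners. The lncRNAs and lists were chosen with earlier results of these data known. edgeR and DESeq2 1.42.0, other scalings, filters, blocks and each culture left out were tried. Per the labels each labelled sample was split, so the 4sU and total libraries of a number were taken as 1 culture for the culture block, and their deviations correlated weakly (0.0103 to 0.0767). The fits were tested on simulated counts.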

Additional observations from a re-analysis of the deposited data

Results flagged for a closer look

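For 2 of the 45 lncRNAs, the genotype change in total RNA differed from that in nascent RNA by the interaction term of the limma fit. For Adap2os the difference was a log2 of -2.0 ± 0.63 (adjusted p = 0.0276), with 3 of 3 KO total libraries below 3 of 3 wild type total libraries. For Cep83os it was 1.17 ± 0.39 (adjusted p = 0.036), with 3 of 3 KO total libraries above all wild type total libraries. Both rest on few counts in total RNA, and each call was lost when certain single cultures were left out, as given with the results.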

How the results depend on the processing

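Of 45 changes called for the named lncRNAs and partners, 36 were called under every setting that gave a value. Another 9 were lost under at least 1, and 0 reversed. Not every change met every setting. Arhgap27os2, Igf2os, Parvaos and Ppp1r18os passed the filter through the 3 libraries of 1 group. They had no value once a culture of that genotype was left out, so their calls, counted as kept, rest on 10 settings. When 3 CPM were required in all 12 libraries, 6 lncRNAs were left, with 0 called in nascent RNA, 0 in total RNA and 0 in stability, and of the 4 pairs left the median ratio difference was -2.49 and 25.0% had the same nascent direction (1 of 4), and the cause was not tested. Without the fold limit 21 were called in nascent RNA. In stability DESeq2 called 1, giving no adjusted p for Adap2os, and 0 were called without the CPM filter, where more genes were tested. With each culture left out in turn, 7 to 10 were called in nascent RNA, 7 to 10 in total RNA and 0 to 1 in stability. The median ratio difference then ranged from -1.94 to -1.65, and 61.5 to 73.8% of pairs had the same direction. Ratio differences in this section are medians of fitted wild type values, -1.73 in the main fit. The -1.81 in the results is a mean of culture medians. Pairs that no longer passed the filter were left out.

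Across genotypes, equal replicate numbers shared only a number (correlations of deviations from -0.0686 to 0.0694). The 4sU and total libraries of a number were taken as 1 split culture, with correlations from 0.0103 to 0.0767. With the number as a block, 10 were called in nascent RNA, 9 in total RNA, without Notumos and Nphs1os, and 2 in stability, the ratio difference was -1.73 and 70.5% of pairs had the same direction. With the culture as a block, 2 were called in stability and the ratio difference was -1.68. Low counts in total RNA limit what the stability test can show for most of these lncRNAs.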
